A study of Helianthus annuus with 9 samples.

Results

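Seeds of the sunflower (Helianthus annuus) line L-1-OL-1, whose oil is rich in oleic acid, were compared between day 22 and day 7 of development. Each day had 3 libraries of rRNA-depleted total RNA, sequenced on the BGI500 platform. Both days share 1 line, field growth and the absence of a treatment. The labels name neither the event from which days were counted nor the plants behind the libraries. A p-value therefore measures a spread between libraries, which may be technical. The model fit behind the calls (limma) took that spread from all 9 libraries of the series, 3 of day 37 added to these 6. The comparison centred on features with a numeric gene ID that reached at least 5 FPKM (a level scaled for transcript length and library size) in 3 or more of these 6 libraries. That rule took 12260 of the 52513 annotated features of the mRNA table, called members here, and 341 of the 7573 annotated features of the long non-coding RNA (lncRNA) table. Assembled loci at the same floor, 1559 in the mRNA table and 2352 in the lncRNA table, are given apart, and so are the circular RNA (circRNA), 3482 in all.

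A sunflower seed first grows by cell division in embryo, endosperm and seed coat, then fills its cotyledons with oil and storage protein, and later dries. Transcripts of genes for growth and those for reserve filling therefore tend to follow each other in time. An lncRNA is a long transcript with no evident coding sequence. A circRNA forms when a splice donor is joined to an acceptor upstream of it, and the closed ring, which lacks free ends, resists exonucleases. Neither the tables nor the gene table pair the IDs with products, so genes are given by symbol (LOC and the ID, or ID where the number had no match) with no role, and the identity of the tissue could not be checked on marker genes.

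Annotated mRNA reached a lower summed level on day 22. Summed over the 12260 members, the level was 250377, 195984 and 133480.3 in the day 22 libraries, against 472103, 477294 and 473894 in the day 7 libraries, in FPKM. The days did not overlap, and day 22 averaged 193281 ± 58495 against 474430.2 ± 2637 on day 7 (SD, n = 3 each). An exact two-sided permutation test gave p = 0.1, the smallest that 3 against 3 libraries can give. The members were chosen on levels in these same libraries, and more entered through day 7 alone than through day 22 alone. Over all annotated features of the table, picked by no level, the sum was 282027, 228339 and 165922 FPKM on day 22. It was 494427, 500303 and 496690 FPKM on day 7 (exact two-sided permutation p = 0.1). The annotated share of the whole mRNA table was 85.1%, 79.8% and 72.6% on day 22, against 91.2%, 91.1% and 91.0% on day 7. Within day 22 the library numbered 3 was lowest in each of these measures. The number of annotated mRNA features at 1 FPKM or more went the other way, with 20729, 21629 and 21678 in the day 22 libraries, against 19008, 19097 and 19091 in the day 7 libraries (exact two-sided permutation p = 0.1). The median coefficient of variation of a member was 32.9% over the day 22 libraries and 5.14% over those of day 7. How deeply each library was sequenced is unknown, as no read counts were used, and the total used in scaling FPKM was not stated. As FPKM is scaled for library size, these sums do not measure the amount of RNA in a seed. For a single gene in whole seeds, fewer cells that express it and less of its RNA per cell cannot be told apart.

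More members fell than rose on day 22. A member was called at a limma adjusted p under 0.05, adjusted over the whole table, with a log2 change of at least 1 in size on the log2(FPKM + 1) scale. Of the 12260 members, 897 rose, 6584 fell and 4779 were not called. Risen features made up 21.4% and fallen ones 32.5% of the 26364 annotated features tested, and 34.1% and 24.9% of all 36401 tested features. The share of risen members was 7.32% and that of fallen members 53.7%. Their median log2 change was -1.14, against -0.53 for the tested annotated features and 0.09 for all tested features. The libraries of the days did not overlap for all 897 risen members, for 6581 of the fallen and for 3316 of those not called. That also held for 86.8% of the tested annotated features, so a lack of overlap sets the members little apart.

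The balance of risen and fallen members moved with the scaling of the libraries. As deposited, 12.0% of the called members were rises. That share was 29.6% after quantile normalization (1291 risen, 3071 fallen), 19.1% with median-of-ratios scaling (1095 and 4634), 9.90% with trimmed mean scaling (846 and 7699) and 36.9% with scaling on 386 genes of at least 10 FPKM in every library (1513 and 2592). Without library 3 of day 22 as deposited, 949 rose and 4701 fell. The same 4 scalings put the median of all tested mRNA features at 0.02, 0.35, -0.04 and 0.78. Rises were the steadier part, since 845 of the 897 risen members were also called risen under each of the 4 scalings. Among the 6584 fallen members, 2337 stayed fallen under each of them. No member called as deposited was called in the other direction by any of these scalings. No scaling moved the median of the members by more than 0.90 on the log2 scale, against changes of 7.90 or more for each of the 20 strongest members.

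**Figure D1:**
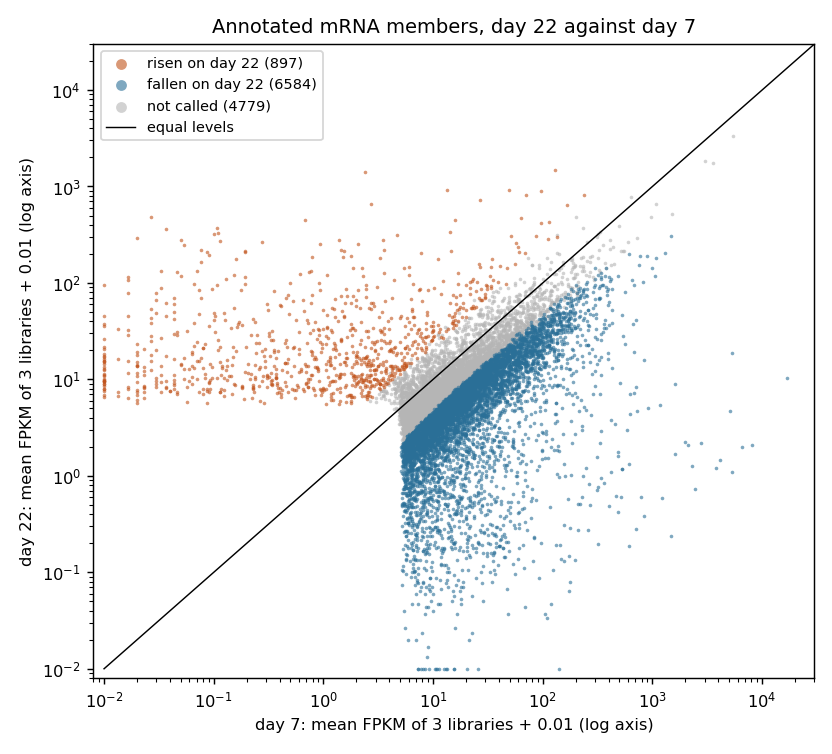
Mean level of each annotated mRNA member on day 22 (vertical axis) and on day 7 (horizontal axis), in FPKM + 0.01 on log axes, coloured by call, with the line of equal levels. The 6584 fallen members form a broad band just below the line with a tail far below it, and the 897 risen members fan out to the upper left.

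Most falls were of 1 to 2 in size on the log2 scale, and most rises were larger. These sizes are not independent of the floor, which admits members through 1 day alone. Of the fallen members 4253 changed by 1 to 2 on the log2 scale, 1953 by 2 to 4, 352 by 4 to 8 and 26 by more than 8. Among the risen members the same classes held 263, 423, 203 and 8. The median fallen member stood at 6.12, 4.57 and 2.93 in the day 22 libraries, against 18.1, 18.5 and 18.2 in the day 7 libraries, in FPKM. The median risen member stood at 21.8, 17.7 and 14.2 in the day 22 libraries, against 1.22, 1.24 and 1.3 in the day 7 libraries, in FPKM. Of the members not called, 4034 lay below 0 and 745 above it, and the change was at least 1 in size in 370 of the 4779. Their median SE was 0.40.

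The floor itself admits some members through 1 day alone, and these had to differ. Of the members, 3259 reached 5 FPKM in no day 22 library and 756 in no day 7 library. Another 5078 reached 5 FPKM in all 6 libraries, and of these 167 rose, 2092 fell and 2819 were not called, with a median log2 change of -0.94. The other 3167 reached it in some libraries of both days, with 19 risen and 1684 fallen. Most of the 897 risen members thus entered through day 22 alone, and a smaller part of the 6584 fallen ones through day 7 alone. For such members the direction was fixed by the floor, and a large change was favoured. In exactly 3 libraries, just inside the rule, 4071 members had a median level of 5.77 FPKM over the 6 libraries. Just outside it, 814 annotated features reached the floor in 2 libraries, with a median level of 3.61 FPKM. At 5 FPKM or more in every day 22 library and under 1 FPKM in every day 7 library were 387 members, 60 of them at a day 22 mean of at least 50 FPKM. The opposite pattern was seen in 673 members, 68 of which had a day 7 mean of at least 50 FPKM. Listed at exactly 0 in all 3 libraries of a day were 18 members on day 22 and 35 on day 7.

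The 10 strongest falls were genes at 1429 FPKM or more in every day 7 library that were nearly gone on day 22. LOC110865032 had 3.34, 1.4 and 1.42 FPKM in the day 22 libraries, against 8295, 7989 and 8030.1 FPKM in the day 7 libraries. It averaged 2.05 ± 1.11 FPKM on day 22 and 8105 ± 166 FPKM on day 7 (SD, n = 3 each), a change of -11.43 ± 0.42 (SE; limma adjusted p = 4.48e-10) on the log2(FPKM + 1) scale. Its day 22 libraries all lay under 4 FPKM. LOC110868684 had 3.25, 1.06 and 1.6 FPKM in the day 22 libraries, against 7149.8, 6073 and 6392 FPKM in the day 7 libraries, a change of -11.17 ± 0.42 (SE; limma adjusted p = 4.62e-10). LOC110937069 reached the lowest day 22 level of these 10 genes, with 0.49, 0.09 and 0.1 FPKM in the day 22 libraries, against 1429, 1473 and 1505 FPKM in the day 7 libraries. It changed by -10.24 ± 0.33 (SE; limma adjusted p = 4.13e-10). In all of these genes the highest day 22 value was in the library numbered 1.

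LOC110880026 had 8.13, 4.01 and 1.92 FPKM in the day 22 libraries, against 4981, 5244 and 5159.6 FPKM in the day 7 libraries. LOC110939887 had 1.2, 0.53 and 0.41 FPKM in the day 22 libraries, against 2481, 2369 and 2467 FPKM in the day 7 libraries. Their log2 changes were -9.97 and -10.50, and the days were far apart in both. LOC110942892, one of the 8 most abundant members of day 7, kept a trace on day 22 with 28.8, 16.9 and 11.1 FPKM in the day 22 libraries, against 5281, 5591 and 5076 FPKM in the day 7 libraries, a change of -8.16 ± 0.52 (SE; limma adjusted p = 3.46e-08). These genes fell under each of the 4 scalings. Whether each has near-identical copies in the genome whose reads the counting could share is not known here, so a level of 1 gene in a family is uncertain.

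The 10 strongest rises were genes at 2.48 FPKM or less on day 7 that reached 166 FPKM or more in every day 22 library. LOC110917110 had 682, 498 and 251 FPKM in the day 22 libraries, against 0, 0 and 0.05 FPKM in the day 7 libraries. It averaged 477 ± 216 FPKM on day 22 and 0.0167 ± 0.0289 FPKM on day 7 (SD, n = 3 each), and rose by 8.76 ± 0.67 (SE; limma adjusted p = 1.83e-07). LOC110927644 was the most abundant of these 10 on day 22, with 2106, 1306 and 865 FPKM in the day 22 libraries, against 2.48, 2.23 and 2.37 FPKM in the day 7 libraries, and rose by 8.64 ± 0.57 (SE; limma adjusted p = 4.48e-08). The highest day 22 value of both genes was in library 1 and the lowest in library 3. LOC110936707 had 493, 381 and 204 FPKM in the day 22 libraries, against 0.02, 0 and 0.06 FPKM in the day 7 libraries, and LOC110911836 had 434, 410.2 and 258 FPKM in the day 22 libraries, against 0.05, 0.06 and 0.18 FPKM in the day 7 libraries. Each rose by 8.36 on the log2(FPKM + 1) scale, which understates the change of a gene near 0.

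LOC110909267 had 398, 236 and 253 FPKM in the day 22 libraries, against 0, 0.03 and 0 FPKM in the day 7 libraries. LOC110934591 had 522, 279.7 and 182 FPKM in the day 22 libraries, against 0.09, 0.09 and 0.12 FPKM in the day 7 libraries. LOC110941627 had 396, 339.5 and 235 FPKM in the day 22 libraries, against 0.02, 0.06 and 0.19 FPKM in the day 7 libraries. All of them were above 180 FPKM in every day 22 library and under 0.2 FPKM in every day 7 library. LOC110885558 stood apart from these in its day 22 order, with its lowest value in library 1: it had 337, 529.9 and 475 FPKM in the day 22 libraries, against 0.32, 0.53 and 1.14 FPKM in the day 7 libraries, and rose by 8.08 ± 0.52 (SE; limma adjusted p = 3.82e-08). LOC110894114 had 336, 292 and 186 FPKM in the day 22 libraries, against 0.03, 0.14 and 0.14 FPKM in the day 7 libraries. It and LOC110905651, which is described with its neighbours below, again had their lowest day 22 value in library 3.

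**Figure D2:**
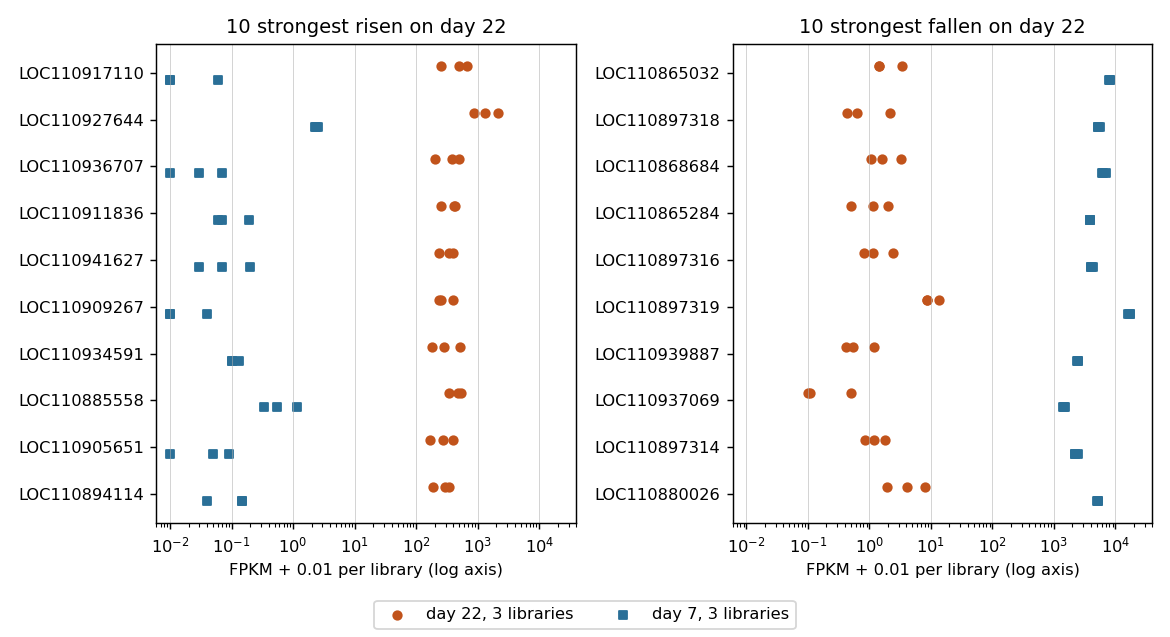
Levels of the 10 strongest risen (left) and the 10 strongest fallen (right) annotated mRNA members in each library, as FPKM + 0.01 on a log axis, with day 22 as circles above day 7 as squares. The days do not overlap for any of the 20 genes, and the fallen genes lie above 1000 FPKM in every day 7 library.

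Few of the 10 or 100 most abundant members were shared between the days. Of the 10 members with the highest day 22 mean, 7 rose, 3 were not called and 2 were also among the top 10 of day 7, in which 8 fell. Of the top 100 of day 22, 56 rose, 6 fell and 22 were also in the top 100 of day 7, of which 81 fell. Of the top 1000, 478 were shared. Each list was picked on the levels of its own day, so the direction of its calls is in part built in. A mean of at least 1000 FPKM was reached by 5 members on day 22 and by 27 on day 7. The 10 most abundant members of a library held 7.49%, 7.45% and 7.01% of the summed member FPKM on day 22, against 13.8%, 13.2% and 13.6% on day 7.

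Several genes became prominent on day 22 from a level that was already present on day 7. LOC110930312 had 2002, 1572 and 912 FPKM in the day 22 libraries, against 128, 134 and 123 FPKM in the day 7 libraries, and rose by 3.46 ± 0.56 (SE; limma adjusted p = 8.12e-05). LOC110880246 had 1115, 951 and 711 FPKM in the day 22 libraries, against 43.7, 52.9 and 50.8 FPKM in the day 7 libraries, and rose by 4.19 ± 0.58 (SE; limma adjusted p = 2.16e-05). LOC110908673 had 1216, 906 and 557 FPKM in the day 22 libraries, against 98.4, 96.4 and 94.6 FPKM in the day 7 libraries, and rose by 3.13 ± 0.72 (SE; limma adjusted p = 0.00132). Their day 22 libraries varied among themselves and still lay above all day 7 libraries. The gene with ID110940572 showed the largest rise among members at 5 FPKM or more in all 6 libraries, with 1197, 899 and 643 FPKM in the day 22 libraries, against 12.7, 13.4 and 14.4 FPKM in the day 7 libraries, and rose by 5.93 ± 0.52 (SE; limma adjusted p = 5.06e-07). Next to it, and chosen after their values were seen, LOC110894757 had 542, 447 and 345 FPKM in the day 22 libraries, against 15.8, 15.9 and 16.1 FPKM in the day 7 libraries, and LOC110929382 had 989, 719 and 469 FPKM in the day 22 libraries, against 27.2, 26.7 and 26.6 FPKM in the day 7 libraries.

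The most abundant members that were not called kept high levels on both days. LOC110932526 led day 22, with 4006, 3774 and 2272 FPKM in the day 22 libraries, against 5110.2, 5438 and 5638 FPKM in the day 7 libraries. Its change was -0.73 ± 0.84 (SE; limma adjusted p = 0.432), so that the lower day 22 values did not pass the test. ID110886340 had 2588, 1857 and 1026 FPKM in the day 22 libraries, against 2762, 3143 and 3228 FPKM in the day 7 libraries, with a change of -0.84 ± 0.81 (SE; limma adjusted p = 0.349). LOC110877981 had 2495, 1685 and 1108 FPKM in the day 22 libraries, against 3509.8, 3563 and 3638 FPKM in the day 7 libraries, with a change of -1.10 ± 0.79 (SE; limma adjusted p = 0.215). None of these 3 genes overlapped between the days, yet with quantile normalization all 3 were called risen, at 1.45 for LOC110932526 (limma adjusted p = 0.00446), 1.36 for ID110886340 (adjusted p = 0.00778) and 1.15 for LOC110877981 (adjusted p = 0.0138). LOC110868526 had 642, 564 and 362 FPKM in the day 22 libraries, against 1417, 1597 and 1540.4 FPKM in the day 7 libraries, with a change of -1.58 ± 0.76 (SE; limma adjusted p = 0.0719), and it was called fallen under median-of-ratios and trimmed mean scaling, among other settings. LOC110905049 changed by -0.77 and LOC110912729 by -1.03, with adjusted p-values of 0.35 and 0.186 in limma. When just the 6 libraries of both days were fitted, 3 of these 6 members were called fallen: LOC110868526 (limma adjusted p = 6.62e-04), LOC110912729 (0.00706) and LOC110877981 (0.0125).

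A subset of the risen members behaved differently among the day 22 libraries. In 164 of the 897 risen members library 3 was higher than library 1, as it was in most assembled loci described below. Their median level was 7.69, 10.9 and 14.0 in the day 22 libraries, against 0.1, 0.11 and 0.11 in the day 7 libraries, in FPKM. The other 733 risen members had a median of 26.4, 20.7 and 14.4 in the day 22 libraries, against 1.79, 1.86 and 1.83 in the day 7 libraries, in FPKM. Of the 164 members, 42.7% (70) had an ID with no match in the gene table, against 1.50% (11) of the other 733. Of the fallen members 4.88% were higher in library 3 than in library 1, and of those not called 0.816%. This split was made after the values were seen, and what moves with it was not tested.

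In gene order, the neighbours of risen members were risen more often than those of all members. The order came from a RefSeq table for HanXRQr2.0-SUNRISE, used for names, classes and order alone, and 3359 adjacent pairs of protein-coding genes had both genes among the members. Of the neighbours of risen members 20.6% (78 of 378 places) were risen too, against 5.63% over all neighbour places. Of the neighbours of fallen members 57.7% were fallen, against 54.9% over all places. Pairs of risen neighbours numbered 39 and pairs of fallen neighbours 1064. These shares are a description with no test. Neighbouring genes can be copies of one another, which could not be examined without sequences.

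The longest runs of risen neighbours held 4 genes. LOC110942230, LOC110916521, LOC110916536 and LOC110919154 formed one of them. LOC110942230 had 668, 434 and 325 FPKM in the day 22 libraries, against 63.2, 61.7 and 64.0 FPKM in the day 7 libraries, and rose by 2.83 ± 0.57 (SE; limma adjusted p = 4.99e-04). LOC110916521 had 309, 207 and 125 FPKM in the day 22 libraries, against 1.75, 0 and 2.82 FPKM in the day 7 libraries, and rose by 6.52 ± 0.64 (SE; limma adjusted p = 1.23e-06). The first was well expressed on day 7, while the second was listed at 0 in 1 day 7 library. LOC110916536 rose by 4.30 and LOC110919154 by 4.11, to day 22 means of 44.1 ± 19.8 and 35.1 ± 8.56 FPKM (SD, n = 3). Another run was LOC110930938, LOC110930940, LOC110932635 and LOC110930941. LOC110930938 had 105, 86.4 and 60.4 FPKM in the day 22 libraries, against 0.86, 1.02 and 0.87 FPKM in the day 7 libraries. The other 3 genes of the run rose by between 2.65 and 3.94 on the log2 scale.

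A run of 3 held LOC110909475, LOC110905651 and LOC110905652. LOC110905651 had 402, 274 and 166 FPKM in the day 22 libraries, against 0, 0.08 and 0.04 FPKM in the day 7 libraries, and rose by 7.99 ± 0.63 (SE; limma adjusted p = 2.19e-07). LOC110905652 had 102, 94.2 and 72.8 FPKM in the day 22 libraries, against 0, 0 and 0.07 FPKM in the day 7 libraries, and rose by 6.45 ± 0.42 (SE; limma adjusted p = 4.12e-08). LOC110909475 reached a lower level, with 16.9, 15.6 and 7.89 FPKM in the day 22 libraries, against 0, 0 and 0.04 FPKM in the day 7 libraries. The strongest riser, LOC110917110, had the risen LOC110916083 as its protein-coding neighbour, with 232, 173 and 92.4 FPKM in the day 22 libraries, against 0.06, 0.07 and 0.07 FPKM in the day 7 libraries, and an annotated lncRNA gene that fell, LOC110916249, lay between them.

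Among the 10 strongest falls were 4 neighbours. LOC110897314, LOC110897316, LOC110897318 and LOC110897319 followed each other in gene order. LOC110897319, the most abundant transcript of day 7, had 13.6, 8.69 and 8.54 FPKM in the day 22 libraries, against 17171, 15986 and 17334 FPKM in the day 7 libraries. LOC110897318 had 2.17, 0.42 and 0.63 FPKM in the day 22 libraries, against 5607, 5150.3 and 5202 FPKM in the day 7 libraries, and LOC110897316 had 2.44, 0.81 and 1.15 FPKM in the day 22 libraries, against 4388, 4069 and 3986 FPKM in the day 7 libraries. LOC110897314 had 1.77, 1.2 and 0.84 FPKM in the day 22 libraries, against 2449, 2220.2 and 2197 FPKM in the day 7 libraries. The 4 genes changed by between -10.00 and -11.42 on the log2 scale, with limma adjusted p-values of up to 1.14e-09. LOC110865284 and LOC110865285 carry successive IDs. LOC110865284 had 2, 0.5 and 1.12 FPKM in the day 22 libraries, against 3872, 3791 and 3799 FPKM in the day 7 libraries, and LOC110865285 had 3.06, 1.63 and 1.78 FPKM in the day 22 libraries, against 2927, 2748 and 2725 FPKM in the day 7 libraries.

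A second run of 4 fallen neighbours held LOC110921492, LOC110921011, LOC110921013 and LOC110921014. LOC110921014 had 27.5, 13.8 and 6.79 FPKM in the day 22 libraries, against 917, 788 and 785 FPKM in the day 7 libraries, and changed by -5.80 ± 0.69 (SE; limma adjusted p = 6.27e-06). LOC110921011 had 12.7, 6.95 and 5.24 FPKM in the day 22 libraries, against 713, 686 and 717 FPKM in the day 7 libraries, and changed by -6.33 ± 0.42 (SE; limma adjusted p = 4.61e-08). All 4 genes of this run kept more than 1 FPKM in every day 22 library. A run of 3, LOC110868404, LOC110868405 and LOC110868406, lay lower on both days. LOC110868405 had 0.32, 0.26 and 0.53 FPKM in the day 22 libraries, against 48.3, 45.2 and 45.5 FPKM in the day 7 libraries, and changed by -5.11 ± 0.21 (SE; limma adjusted p = 7.35e-10).

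**Figure D3:**
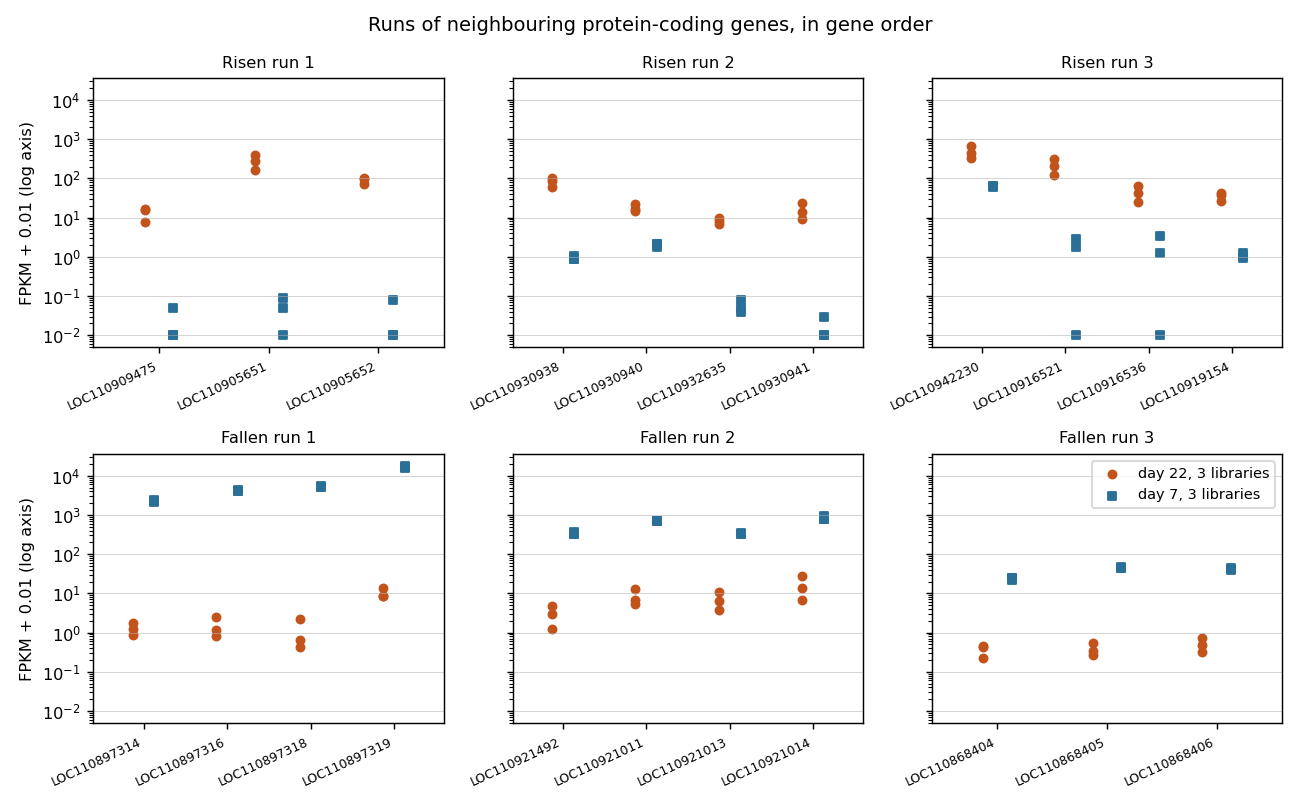
Levels of genes in 6 runs of neighbouring protein-coding members, 3 risen (upper row) and 3 fallen by at least 4 on the log2 scale (lower row), in gene order, as FPKM + 0.01 on a log axis. Day 22 libraries are circles at the left of each gene and day 7 libraries are squares at its right, and within each run the days stand apart in the same direction for every gene.

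Of the 341 annotated lncRNA members, 21 rose, 107 fell and 213 were not called. Risen features made up 14.4% and fallen ones 11.4% of the 1682 annotated lncRNA features tested, against 6.16% and 31.4% of the members. This contrast depends on the floor, since at a member floor of 1 FPKM 182 rose and 192 fell. The median log2 change of the 341 members was -0.71, against -0.12 over the tested annotated lncRNA features. Over all tested features of the lncRNA table, most of them assembled loci, it was 1.11. These counts depended on the scaling more than those of the mRNA did. With quantile normalization 14 rose and 277 fell, with median-of-ratios scaling 14 and 322, with trimmed mean scaling 11 and 323, and with scaling on the 386 mRNA genes 23 and 19. The 4 scalings put the median of all tested lncRNA features at -0.02, 0.64, 0.58 and 1.36. The median of the members was 0.19 with scaling on the 386 genes, above 0 in place of below. Called as deposited and under all 4 scalings were 11 of the risen and 19 of the fallen members, while 3 were called in the other direction with median-of-ratios and 4 with trimmed mean scaling. Without library 3 of day 22, 70 members fell in place of 107.

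The strongest lncRNA rise was that of LOC110864125, which had 80.2, 46.7 and 48.4 FPKM in the day 22 libraries, against 0.05, 0 and 0 FPKM in the day 7 libraries. It averaged 58.4 ± 18.9 FPKM on day 22 and 0.0167 ± 0.0289 FPKM on day 7 (SD, n = 3 each), and rose by 5.83 ± 0.27 (SE; limma adjusted p = 3.39e-19). LOC110939334 had 16.7, 19.8 and 34.0 FPKM in the day 22 libraries, against 0, 0 and 0 FPKM in the day 7 libraries, and so was listed at 0 in every day 7 library. Its day 22 values were highest in library 3, unlike those of LOC110941137, which had 134, 66.4 and 35.2 FPKM in the day 22 libraries, against 1.54, 1.93 and 1.18 FPKM in the day 7 libraries. LOC110941137 rose by 4.77 ± 0.65 (SE; limma adjusted p = 4.21e-05). LOC110907209 had 41.3, 36.5 and 23.7 FPKM in the day 22 libraries, against 0.81, 1.29 and 1.15 FPKM in the day 7 libraries, and LOC110911918 had 46.8, 35.4 and 29.9 FPKM in the day 22 libraries, against 1.74, 1.59 and 1.97 FPKM in the day 7 libraries. With trimmed mean scaling LOC110941137 (adjusted p = 0.0559) and LOC110911918 (adjusted p = 0.0590) no longer passed the limma test.

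Among fallen lncRNA, the gene with ID110928057 had 0.39, 0 and 0.14 FPKM in the day 22 libraries, against 170.4, 147 and 149 FPKM in the day 7 libraries, a change of -7.07 ± 0.26 (SE; limma adjusted p = 9.10e-22). ID110871406 had 0.09, 0 and 0.06 FPKM in the day 22 libraries, against 116, 117 and 119 FPKM in the day 7 libraries, and ID110871408 had 0.16, 0 and 0 FPKM in the day 22 libraries, against 80.5, 82.7 and 86.3 FPKM in the day 7 libraries. The days were far apart in each of these genes, with every day 22 value under 1 FPKM. LOC110909448 had 0.36, 0 and 0 FPKM in the day 22 libraries, against 38.3, 26.9 and 23.5 FPKM in the day 7 libraries, a change of -4.76, and LOC110909936 had 4.62, 2.73 and 1.81 FPKM in the day 22 libraries, against 69.8, 70.6 and 72.0 FPKM in the day 7 libraries, a change of -4.21. The protein-coding neighbour of LOC110909936, LOC110909943, fell as well. Of the 41 protein-coding members next to a fallen lncRNA, 23 fell, 16 were not called and 2 rose. Of the 10 next to a risen lncRNA, 7 fell, 3 were not called and 0 rose. The fallen share of mRNA members as a whole was 53.7%.

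Assembled loci, transcribed regions named by the assembly and not by the gene annotation, moved the other way. At the same floor 957 of the 1559 loci of the mRNA table rose, 305 fell and 297 were not called. Their risen share was 61.4%, against 34.1% of all tested features. Most of these tested features, 26364 of 36401, were annotated ones, of which 21.4% rose. Among loci of the lncRNA table, 1774 of 2352 rose, 260 fell and 318 were not called, a risen share of 75.4%. There, 60.9% of all tested features rose and 1.69% fell. The lncRNA loci gave 1602 rises and 427 falls after quantile normalization, 1599 and 595 with median-of-ratios scaling, 1521 and 641 with trimmed mean scaling and 1806 and 129 with scaling on the 386 genes. Of the loci called as deposited, 22 were called in the other direction with median-of-ratios and 67 with trimmed mean scaling. In the mRNA table the same scalings gave 991 and 184, 974 and 220, 951 and 339, and 1013 and 162, and turned none. The median log2 change was 2.90 in the mRNA table and 3.20 in the lncRNA table. The median risen locus of the mRNA table stood at 9.21, 13.3 and 16.3 in the day 22 libraries, against 0.11, 0.11 and 0.11 in the day 7 libraries, in FPKM. The median risen locus of the lncRNA table stood at 8.45, 11.8 and 15.1 in the day 22 libraries, against 0.05, 0.05 and 0.055 in the day 7 libraries, in FPKM.

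Within day 22 the risen assembled loci ran against the annotated genes. Library 3 was higher than library 1 in 880 of the 957 risen loci of the mRNA table (92.0%) and in 1692 of the 1774 of the lncRNA table (95.4%). Library 3 was also the library with the lowest summed FPKM of members. Under the floor the same direction prevailed, with 5803 risen, 204 fallen and 2471 loci not called in the mRNA table, and with 18795, 126 and 11192 in the lncRNA table. The median locus under the floor in the mRNA table stood at 1.17, 1.63 and 1.99 in the day 22 libraries, against 0.01, 0.01 and 0.01 in the day 7 libraries, in FPKM. Assembled loci at 1 FPKM or more in the lncRNA table numbered 16134, 24996 and 36950 in the day 22 libraries, against 2022, 1966 and 1994 in the day 7 libraries (exact two-sided permutation p = 0.1). Whether this order of the day 22 libraries has a part in the falls of annotated genes was not tested, and without library 3 of day 22 the floor set held 961 risen and 243 fallen loci in the mRNA table.

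**Figure D4:**
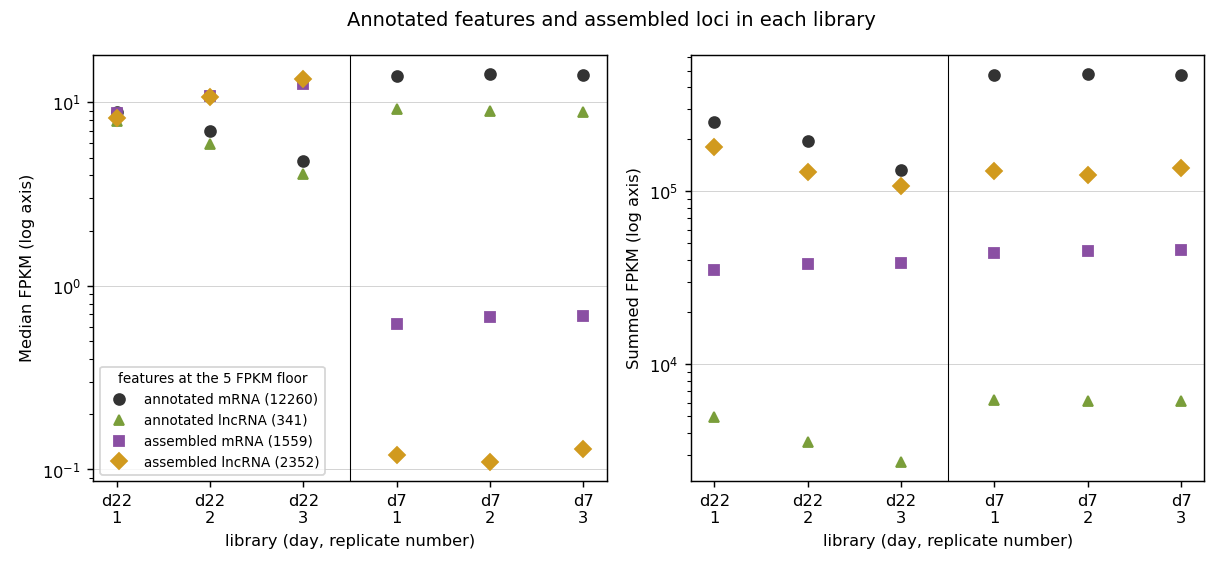
Median (left) and summed (right) FPKM of 4 sets of features at the 5 FPKM floor in each library, on log axes, with the day 22 libraries at the left of each panel and the day 7 libraries at the right. In the day 22 library numbered 3 the medians of both assembled sets are highest and those of both annotated sets are lowest, while the sum of the assembled lncRNA loci is lowest there too.

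Among intergenic assembled loci, most of those with a single exon rose, and a smaller share of those with 2 or more exons did. Places were given for 378 of the mRNA loci and 614 of the lncRNA loci. In the mRNA table, 183 of 204 single-exon intergenic loci rose, and of 32 with 2 or more exons 4 rose and 16 fell. The median single-exon locus stood at 8.30, 11.9 and 14.7 FPKM on day 22, against 0.09, 0.08 and 0.08 FPKM on day 7. A locus at such levels passed the floor through day 22 alone, which fixed its direction. The median log2 change was 3.36 for the single-exon loci and -1.23 for the spliced ones, against -1.14 for the annotated members. The lncRNA table gave 362 risen of 427 single-exon intergenic loci, and 20 risen and 21 fallen of 59 with 2 or more exons. Spliced loci that shared a junction with an annotated gene numbered 107 in the mRNA table, of which 23 rose and 47 fell.

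Individual assembled loci reached high levels. LXLOC_216026 of the lncRNA table had 847, 1173 and 1619.9 FPKM in the day 22 libraries, against 0.03, 0.07 and 0.38 FPKM in the day 7 libraries, and rose by 9.99 ± 0.41 (SE; limma adjusted p = 1.53e-20). LXLOC_137664 had 802, 985 and 1421 FPKM in the day 22 libraries, against 0.12, 0.06 and 0.21 FPKM in the day 7 libraries, and LXLOC_215589 had 564, 607 and 1100.2 FPKM in the day 22 libraries, against 0, 0.06 and 0.16 FPKM in the day 7 libraries. Library 3 was the highest day 22 library in all of them. In the mRNA table MXLOC_200773 had 274, 503 and 639 FPKM in the day 22 libraries, against 0.89, 0.83 and 0.85 FPKM in the day 7 libraries, and MXLOC_179773 had 336, 627 and 783 FPKM in the day 22 libraries, against 1.25, 1.39 and 1.67 FPKM in the day 7 libraries. MXLOC_140769 showed the opposite order on day 22, with 435, 358 and 293 FPKM in the day 22 libraries, against 0, 0 and 0 FPKM in the day 7 libraries, and so was listed at 0 throughout day 7.

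Among fallen loci, MXLOC_047828, at NC_035437.1:266270-274240 with 2 exons, had 0.46, 0.37 and 0.46 FPKM in the day 22 libraries, against 927, 973 and 969.6 FPKM in the day 7 libraries, a change of -9.39 ± 0.32 (SE; limma adjusted p = 4.13e-10). It overlaps exons of the annotated LOC110939566, which was listed at 0.01 FPKM in each day 22 library, against 20.9, 28.4 and 14.3 FPKM on day 7. Reads of the locus and the gene cannot be told apart. MXLOC_160431 had 0.7, 1.12 and 0.98 FPKM in the day 22 libraries, against 714, 750.0 and 775 FPKM in the day 7 libraries, and MXLOC_119275 had 0.33, 0.22 and 0 FPKM in the day 22 libraries, against 371, 389 and 435 FPKM in the day 7 libraries. Of the lncRNA table, LXLOC_204293 had 0.2, 0.27 and 0 FPKM in the day 22 libraries, against 742, 560.0 and 527 FPKM in the day 7 libraries. The intergenic LXLOC_026551, at NC_035435.1:104524964-104635760 with 2 exons, had 0.2, 0 and 0 FPKM in the day 22 libraries, against 346, 297 and 333 FPKM in the day 7 libraries, and LXLOC_160427 had 0.31, 0 and 0 FPKM in the day 22 libraries, against 270.3, 269 and 281 FPKM in the day 7 libraries. All of these stayed near or below 1 FPKM on day 22. No source used here names the genome build of these positions.

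Fewer circRNA were listed on day 22, and their summed signal was lower. Above 0 were 585, 396 and 319 circRNA in the day 22 libraries, against 1113, 1111 and 1237 in the day 7 libraries. The means were 433 ± 137 on day 22 and 1154 ± 72.2 on day 7 (SD, n = 3 each; exact two-sided permutation p = 0.1, the smallest possible). The summed signal was 77319, 31224 and 20462 on day 22, against 376065, 400547 and 396264 on day 7. The days did not overlap in either measure, and library 3 of day 22 was lowest. The signal is a scaled value without a unit in the header. Within a library it took multiples of 1 step, 10.4, 9.97 and 9.60 on day 22, against 14.0, 14.5 and 14.4 on day 7, within 0.51 of a multiple for every value. The lowest value above 0 was 2 steps in every library, and so lay higher on day 7 than on day 22. The share of circRNA at that lowest value was 45.1%, 46.5% and 49.2% on day 22, against 39.2%, 37.0% and 38.8% on day 7.

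Of the 645 circRNA tested, those above 0 in at least 3 of the 9 libraries in the fit, 17 (2.64%) rose, 324 (50.2%) fell and 304 were not called, with a median change of -1.68 on the log2(signal + 19) scale. Above 0 in all 6 libraries were 74, of which 1 rose, 39 fell and 34 were not called. Of the 324 fallen circRNA, 182 were listed at 0 in every day 22 library, and 13 of the 17 risen ones were listed at 0 in every day 7 library. Scaling changed the balance here as well. After quantile normalization 34 rose and 49 fell, with median-of-ratios scaling 26 and 186, and with trimmed mean scaling 25 and 189. Quantile normalization called 2 circRNA in the direction opposite to that as deposited, and the other scalings none. The median change of all tested circRNA was then 0.06, -0.79 and -0.88. Of the 2876 circRNA listed in any of the 6 libraries, 67.9% were listed in 1 library alone.

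The 4 strongest falls were the leading circRNA of day 7 and were listed at 0 in all day 22 libraries. The circRNA at NC_035433.1:75074236-75089399 had a signal of 0 in every day 22 library, against 44832, 47060 and 49157 in the day 7 libraries (limma adjusted p = 2.53e-08). That at NC_035445.1:2850315-2853333 had 0 on day 22, against 40388, 34337 and 39886 on day 7. The third, at NC_035449.1:50566231-50750807, spans 184576 bases and had 0 on day 22, against 32715, 27614 and 29633 on day 7. The fourth, at NC_035440.1:134826327-134847706, had 0 on day 22, against 25001, 24491 and 22615 on day 7. Together they held 38.0%, 33.3% and 35.7% of the circRNA signal of the day 7 libraries.

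Some circRNA share an end with others. Of the tested circRNA 63 shared a start or an end with another. On NC_035435.1, 4 circRNA ended at 151580394, and all were listed at 0 on day 22. The one that starts at 151551600 had 2362, 2183 and 2181 on day 7. Those that start further upstream were weaker, with 293, 188 and 245 on day 7 for the start at 151473061, 349, 202 and 332 for 151498086 and 266, 260 and 130 for 151523130. All of these fell, with limma adjusted p-values of 1.47e-07, 7.94e-06, 1.04e-05 and 3.53e-05. Members of such a set share a splice site and are not independent.

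The strongest rise was the circRNA at NC_035435.1:129518962-129556158, with a signal of 1976, 1575 and 989 in the day 22 libraries, against 0 in every day 7 library (limma adjusted p = 7.46e-05). Its end lies at the end of an exon of LOC110932224, whose mRNA level was 0.03, 0 and 0.04 FPKM on day 22, against 0 FPKM in every day 7 library. That at NC_035443.1:22519684-22542214 had 967, 668 and 528 on day 22, against 84, 0 and 58 on day 7 (adjusted p = 0.00323). The circRNA at NC_035449.1:54607614-54609465 had 479, 199 and 86 on day 22, against 0 throughout day 7, and shares its end with one that starts at 54607586 and had 62, 80 and 29 on day 22, against 28, 0 and 0 on day 7. The fourth, at NC_035446.1:117741122-117741768, had 135, 199 and 77 on day 22, against 0 throughout day 7. Of the 17 risen circRNA, 2 had only the lowest possible value in each day 22 library, 21, 20 and 19, against 0 on day 7. The lowest value above 0 in a day 7 library was 28 or 29, so none there listed a signal this low. Whether these 2 circRNA rose is thus not shown.

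Where a circRNA shared an exon end with an annotated gene, the falls of both could be set side by side. This was so for 35 tested circRNA and 32 tested genes, in 38 pairs. In 9 pairs both fell, in 10 the circRNA fell and the gene was not called, in 6 the gene alone fell and in 13 neither was called. Of all tested circRNA 50.2% fell, and of all tested annotated mRNA features 32.5% fell. Joint falls are therefore to be read beside these shares. All pairs lay on NC_035433.1 to NC_035437.1, while tested circRNA lay on other sequences too. The circRNA at NC_035435.1:137950409-137956288 had 510, 369 and 221 on day 22, against 3843, 4496 and 4058 on day 7. Its ends meet exons of LOC110930260 and LOC110930261, and both genes fell. LOC110930260 averaged 1.69 ± 0.464 FPKM on day 22 and 7.02 ± 0.645 FPKM on day 7 (SD, n = 3 each). LOC110930261 averaged 15.3 ± 6.50 FPKM on day 22 and 59.4 ± 1.55 FPKM on day 7. The circRNA at NC_035434.1:178311462-178312100 had 759, 628 and 192 on day 22, against 3620, 2877 and 3061 on day 7. It fell, while its gene LOC110927324 changed by -0.83 on the log2 scale, under the size that a call needs (limma adjusted p = 0.0243). The gene's means were 1.52 ± 0.724 FPKM on day 22 and 3.36 ± 0.311 FPKM on day 7 (SD, n = 3 each). The + 1 of the scale shrinks changes at levels this low. LOC110930653 (limma adjusted p = 0.00212) and LOC110935831 (0.00394), beside other fallen circRNA, also missed a call on size alone. The other uncalled genes beside a fallen circRNA had limma adjusted p-values of 0.0731 or more. An end at the same base does not show that the circle comes from that gene's transcripts.

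**Figure D5:**
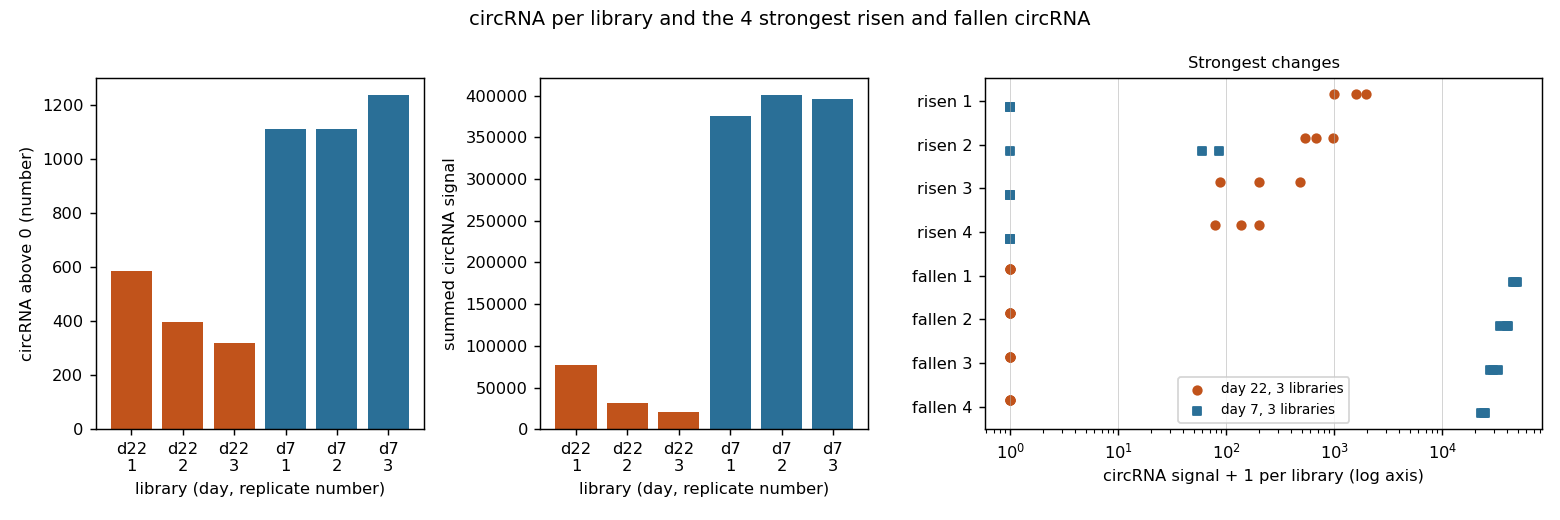
Number of circRNA above 0 (left) and summed signal (centre) in each library, and the signal + 1, on a log axis, of the 4 strongest risen and 4 strongest fallen circRNA in the order of the text (right), with day 22 left of or above day 7. The 4 fallen circRNA lie at 0 in every day 22 library and at 22615 or more in every day 7 library.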

How the data were processed

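Total RNA of seeds was depleted of rRNA and sequenced, per the labels' protocols. The submitters' processing notes name RSEM 1.2.12, HISAT2 2.0.4, DESeq2 1.4.5 and Bowtie2 2.2.5 without their roles. The authors deposited mRNA and lncRNA levels as FPKM per the file headers, 65535 features in each table, which may be parts of longer tables. The circRNA values were deposited as a scaled signal whose unit the header does not name. Counting by strand is not stated, so reads of a gene and its antisense partner cannot be told apart, and near-identical copies are uncertain. Depth is unknown.

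Each table was fitted once over all 9 libraries, 3 of day 37 included for a shared spread, with limma 3.58.1 (trended, robust) in R 4.3.3. FPKM entered as log2(FPKM + 1) for features at 1 FPKM or more in at least 3 libraries, and circRNA as log2(signal + 19) for those above 0 in at least 3. P-values were adjusted by Benjamini-Hochberg over each table, and a call needs an adjusted p under 0.05 and a log2 change of at least 1 in size. Features were named by rule: called changes of the largest size in each direction whose libraries do not overlap (10 and 10 mRNA, 5 and 5 lncRNA, 3 and 3 loci a table, 4 and 4 circRNA), the 8 most abundant members of each day, the 6 most abundant without a call and the 3 most abundant circRNA. Genes of runs, host genes and loci beside genes were chosen after their values were seen. The members and lists were chosen with earlier results of these data known. Symbols came from the RefSeq gene table of HanXRQr2.0-SUNRISE, which matched 12026 of the 12260 mRNA members. The lists of proteins by product and the promoter motifs that had been planned could not be used without product names and sequences. Single values were compared by exact two-sided permutation. The fit was also run on simulated data with known changes, in which a feature had the same spread on each day. That run could not check how the larger spread on day 22 bears on the calls. Deviations of libraries with the same number correlated at 0.186, 0.167 and 0.185 in the mRNA table. The highest value there between libraries of different number was 0.103. Same-numbered libraries gave 0.0388, 0.256 and -0.0723 in the lncRNA table, and 0.00808, -0.0424 and 0.00513 in the circRNA table. The rule used paired the libraries in the mRNA table alone. All tables come from the same libraries, so these values do not settle whether the numbers pair them. No label says what a number shares. Alternatives covered scaling, pseudocount, filters, floor, libraries left out and the replicate block.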

Additional observations from a re-analysis of the deposited data

How the results depend on the processing

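The number of risen and fallen annotated mRNA members kept its direction of imbalance under every alternative run. With at least 2 on the log2 scale as the size of a call, 2331 fell. A member floor of 20 FPKM gave 308 risen and 2915 fallen, a floor of 1 FPKM gave 4127 risen, quantile normalization gave 3071 fallen, and scaling on 386 genes gave 1513 risen and 2592 fallen. Annotated lncRNA falls, 107 in the text, numbered 23 at a log2 size of 2, 323 with trimmed mean and 322 with median-of-ratios scaling, 277 after quantile normalization, 19 with scaling on the 386 genes, 192 and 28 at floors of 1 and 20 FPKM, 41 with a pseudocount of 5 and 70 without library 3 of days 22 and 37. Annotated lncRNA rises numbered 182 and 4 at floors of 1 and 20 FPKM and 11 with trimmed mean scaling.

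Assembled lncRNA falls numbered 135 at a log2 size of 2, 641 with trimmed mean and 595 with median-of-ratios scaling, 427 after quantile normalization, 129 with scaling on the 386 genes and 98 at a floor of 20 FPKM. Their rises numbered 1140 with a mean of at least 5 FPKM in place of the floor, and 12870 and 243 at floors of 1 and 20 FPKM. Assembled mRNA falls numbered 155 at a log2 size of 2, 184 after quantile normalization, 162 with scaling on the 386 genes, and 508 and 122 at floors of 1 and 20 FPKM. Their rises numbered 4942 and 147 at those floors.

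The circRNA falls numbered 139 among those above 0 in 5 libraries, 189 with trimmed mean scaling, 186 with the median of ratios and 49 after quantile normalization. The rises numbered 7 at a log2 size of 2, 10 among those above 0 in 5 libraries, 10 with no filter, 7 with a pseudocount of 50, 26 with median-of-ratios scaling and 34 after quantile normalization. The mean number of circRNA above 0 differed by -720.3 between day 22 and day 7, by -503 when 2 of 3 libraries of a day had to be above 0, and by -450 at a signal of at least 50.

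Leaving out each library in turn gave 804 to 949 risen and 4701 to 7120 fallen mRNA members, 19 to 21 and 70 to 148 lncRNA members, 950 to 961 and 243 to 326 assembled mRNA loci, 1771 to 1778 and 229 to 305 assembled lncRNA loci, 12 to 21 and 276 to 334 circRNA, and a difference in circRNA number of -796 to -663. With the replicate block 916 mRNA members rose and 6889 fell, and for the assembled mRNA loci 957 and 314. In the other tables, which the rule did not pair, the replicate block gave 21 risen and 108 fallen lncRNA members, 1774 and 261 assembled lncRNA loci, and 19 and 326 circRNA. No count moved by more than 1.5 times under it.

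Genes without a call as deposited turned sign under some scalings. Quantile normalization gave 1.45 for LOC110932526, 1.36 for ID110886340 and 1.15 for LOC110877981, which were then called risen, and without a call 0.53 for LOC110905049 and 0.33 for LOC110912729, and scaling on the 386 genes gave 0.28 for LOC110932526, 0.17 for ID110886340 and 0.23 for LOC110905049. Trimmed mean scaling took LOC110911918 to 0.73 and LOC110941137 to 1.78, without a call. The cause of these shifts was not tested. Annotated features alone were not run for circRNA and assembled loci, nor was scaling on the 386 genes for circRNA. Depth, unknown here, limits what levels near 0 can show.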

Other observations

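Of the 66 lncRNA loci at the floor that overlap exons of an annotated gene on the other strand, 65 rose and 1 was not called, while 75.4% of all assembled lncRNA loci at the floor rose. All 12 such loci of the mRNA table rose, where 61.4% of assembled loci did. These 12 loci, and 58 of the 66, had a single exon. Of single-exon intergenic loci, 183 of 204 rose in the mRNA table and 362 of 427 in the lncRNA table. Loci that passed the floor through day 22 alone had their direction fixed in each set. For the lncRNA loci that overlap a gene on the other strand, 30 pairs had a tested gene, which rose in 20, fell in 4 and was not called in 6. Among all tested annotated mRNA features 21.4% rose and 32.5% fell. The mRNA loci of this kind gave 3 such pairs, in which 1 gene rose, 1 fell and 1 was not called. LXLOC_020557 had 29.4, 49.0 and 63.3 FPKM in the day 22 libraries, against 3.07, 2.76 and 3.08 FPKM in the day 7 libraries. Its gene LOC110894380 had 75.4, 81.6 and 128 FPKM on day 22, against 2.13, 2.30 and 2.87 FPKM on day 7. Library 3 was highest on day 22 in both. Since counting by strand is not stated, reads of the locus and the gene cannot be told apart.

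Loci that share a splice junction with an annotated gene formed 62 pairs in the mRNA table. Both fell in 18 pairs and neither was called in 18. In 3 pairs the locus rose and the gene fell, and in 2 the locus fell and the gene rose. MXLOC_025674 had 8.37, 9.61 and 13.1 FPKM on day 22, against 0.13, 0.16 and 0.22 FPKM on day 7. Its gene LOC110929313 had 8.37, 2.49 and 0 FPKM on day 22, against 21.8, 21.0 and 21.1 FPKM on day 7. MXLOC_000064 was listed at 0 in every day 22 library, against 6.56, 6.80 and 6.56 FPKM on day 7, while its gene LOC110941802 had 8.55, 9.25 and 6.96 FPKM on day 22, against 0.02, 0 and 0 FPKM on day 7. MXLOC_022213, not called, had 24.5, 35.6 and 45.4 FPKM on day 22, against 20.0, 19.4 and 21.3 FPKM on day 7, and its gene LOC110924881 was listed at 0 throughout day 22, against 20.1, 20.8 and 20.3 FPKM on day 7. How reads were divided between such a locus and its gene is not stated.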
